A study of Mus musculus with 10 samples.

Results

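Single-cell transcriptomes of day 4 embryoid bodies (d4 EB) were compared between E14Tg2a and R1, both wild-type mouse embryonic stem cell lines. The E14Tg2a cells carry library number 6 at the end of the barcode, and the R1 cells have column names that begin with WT, so no measured value chose them. Together they are 1784 of the 5897 cells of the series, 368 of E14Tg2a and 1416 of R1. The study profiled the way from embryonic stem cells (ESC) to primordial germ cell-like cells (PGCLC) in E14Tg2a, and d4 EB of R1 with and without catalytic mutations in *Mll3/4*. Both groups are male and unedited, went from 2i and LIF into epiblast-like cells (EpiLC) for 2 days, and then floated for 4 days with BMP4, SCF, LIF and EGF but no BMP8a. They differ in line, in 10x Genomics chemistry (v2 for E14Tg2a, v3 for R1), in depth and in the table that holds them, and these differences cannot be told apart. Each group is 1 library, so no test was made, and cells of a library are not replicates.

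In the mouse embryo, BMP4 from the extraembryonic ectoderm (ExE) turns a few epiblast cells into primordial germ cells (PGC). The transcription factors *Prdm1*, *Prdm14* and *Tfap2c* then silence the somatic program, bring back naive pluripotency genes and start the loss of DNA methylation. The same signal makes extraembryonic mesoderm, the source of the allantois, the amnion lining and the first vessels and blood, so that EB hold germ cells among several other lineages.

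Symbols were matched between both tables, which had been made separately, and 26838 were shared. The matched genes held 9497775 unique molecular identifiers (UMIs) in E14Tg2a and 20430826 in R1, and a median cell held 21416 against 13087. Cells were thinned to 8858 UMIs for clustering and detection. Thinning left out no E14Tg2a cell and 142 R1 cells (10.0%, 8.51 to 11.7), and 1274 R1 cells were clustered. Intervals given with values are at 95%, exact Poisson for counts per 1000000 UMIs (CPM) and exact Clopper-Pearson for shares, and they cover counting error only. At equal depth a median E14Tg2a cell showed 2628 genes and a median R1 cell 3114. Ribosomal protein genes took 34.8% of UMIs in E14Tg2a and 21.3% in R1, and mitochondrial genes 3.78% and 5.25%. Doublet calling named 3 E14Tg2a cells and 8 R1 cells, which were kept. No barcode was shared between both libraries.

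The labels of both lines could be checked on known line and sex genes. E14Tg2a lacks a working *Hprt*, the purine salvage enzyme (ENSMUSG00000025630), and its d4 EB gave 2 *Hprt* UMIs, or 0.211 CPM, against 70.5 CPM (66.9 to 74.3) in R1. The Y-linked *Ddx3y* stood at 32.6 CPM in E14Tg2a and 31.0 in R1, and *Eif2s3y* at 53.3 and 45.5. *Xist*, which coats the inactive X of female cells, was at 0.948 and 0.979 CPM. Both libraries thus carried male transcripts, and *Hprt* was near 0 in E14Tg2a alone.

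Cells with PGC markers, an epithelial cluster rich in keratins and mesoderm were found in both lines when each library was clustered by itself. At the main settings E14Tg2a gave 5 clusters and R1 gave 7, and endothelium formed a cluster in E14Tg2a only. In R1 endothelium separated with 20 components and under several other settings, as described below. Names ending in -like rest on listed markers of that lineage, of which at least 1 was among the 10 leading genes and none of another lineage outnumbered them. The naive-like cluster has 1 such marker there, *Fgf4*, and the R1 endothelium-like cluster has 2. Each -like cluster was picked as the one with the highest median fold of its list. The R1 *Dppa3*, *Fgf8*, *Krt7* and *Ttr* clusters were picked likewise, by the PGC, primitive streak, amnion and extraembryonic endoderm lists. A high value of a list in the cluster it picked is thus fixed in part. The name collagen-rich was given to the E14Tg2a mesoderm cluster lower in mitosis genes and to the R1 mesoderm cluster other than *Tbx4*. It describes their collagen list and does not mean that both clusters match. The other clusters are called by a leading gene. No collagen is among the 10 leading genes of the E14Tg2a collagen-rich cluster. Among its 10 leading genes the R1 collagen-rich cluster has 1 collagen, *Col9a1*, and the endothelial genes *Cdh5*, *Sox18* and *Ctla2a*, and it holds 20 of the 21 R1 endothelium-like cells. In E14Tg2a the PGC-like cluster held 48 cells (13.0%, 9.78 to 16.9), the ExE-like cluster 38 (10.3%, 7.41 to 13.9) and the endothelium-like cluster 27 (7.34%, 4.89 to 10.5). The other E14Tg2a cells were mesoderm, 159 in a collagen-rich cluster (43.2%) and 96 in a cluster led by *H19* (26.1%). In R1 there were a collagen-rich cluster of 476 cells (37.4%), a *Tbx4* cluster of 327 (25.7%), a *Krt7* cluster of 159 (12.5%, 10.7 to 14.4), an *Fgf8* cluster of 110 (8.63%, 7.15 to 10.3), a naive-like cluster of 108 (8.48%, 7.01 to 10.1), a *Dppa3* cluster of 70 (5.49%, 4.31 to 6.89) and a *Ttr* cluster of 24 (1.88%, 1.21 to 2.79). The PGC list had a median of at least 2-fold in 1 cluster in E14Tg2a and in 3 clusters in R1, *Dppa3*, naive-like and *Fgf8*, which together made up 22.6% of the R1 cells and are called clusters with PGC markers. Giving each E14Tg2a cell to its most alike R1 cluster put 93 cells (25.3%) with these 3, of which 48 were PGC-like and 45 came from other clusters, 17 of them endothelium-like and 13 from the *H19* cluster.

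**Figure D1:**
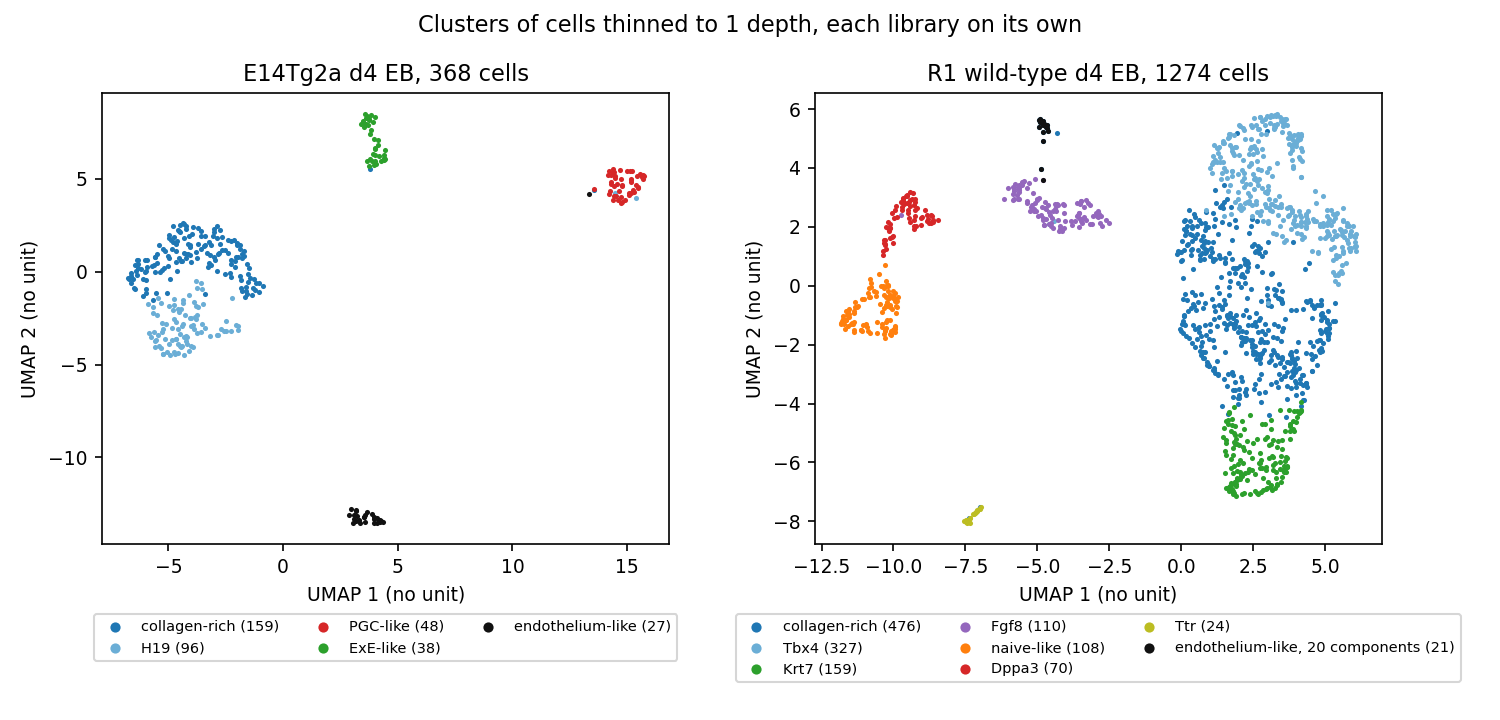
Each point is a cell of d4 EB thinned to 8858 UMIs, placed on both UMAP axes (no unit) of its own library and coloured by cluster. The 48 E14Tg2a PGC-like cells form 1 group, the R1 cells with PGC markers form 3, and the 21 R1 endothelium-like cells, drawn in black, were mostly counted in the collagen-rich cluster (20 of 21).

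Germ cell and pluripotency genes were shared by the E14Tg2a PGC-like cluster and the R1 *Dppa3* cluster. Fold means CPM plus 1 in the cluster over CPM plus 1 in the other clustered cells of the same library, with all UMIs counted. Of 12 PGC genes, 11 were at least 2-fold higher in each, with a median fold of 19.8 in E14Tg2a and 5.57 in R1. Of all measured genes, 5.60% passed in the E14Tg2a cluster and 7.24% in the R1 cluster. Both clusters were picked by the PGC list, which fixes its values in part. The rest of the R1 cells include both other clusters with PGC markers, and the summed PGC list was at 439.3 CPM in the cells outside the *Dppa3* cluster, against 96.0 CPM outside the E14Tg2a PGC-like cluster. Inside, the same sum was 2171.6 CPM in E14Tg2a and 2999.4 CPM in R1, so the folds differed more than the levels did. The median cell of the E14Tg2a PGC-like cluster held 24540 UMIs and that of the R1 *Dppa3* cluster 15203.

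*Dppa3*, also called Stella (ENSMUSG00000046323), protects DNA methylation in the fertilised egg and is an early PGC gene. It was at 183.3 CPM (159.5 to 209.6) in the E14Tg2a PGC-like cluster, 68.8-fold over the rest, and at 282.4 CPM (252.5 to 314.8) in the R1 *Dppa3* cluster, 49.2-fold over the rest. At equal depth it was seen in 35.4% of E14Tg2a PGC-like cells against 0.938% of the other cells, and in 60.0% of R1 *Dppa3* cluster cells against 1.91%. *Prdm1*, the repressor that specifies PGC, was at 20.6 CPM (13.2 to 30.7) in E14Tg2a and 59.1 CPM (45.9 to 74.9) in R1. *Tfap2c*, which acts with it, was at 80.9 CPM (65.4 to 99.0) and 238.1 CPM (210.7 to 268.0), and *Nanos3*, an RNA-binding protein that keeps PGC alive, at 21.5 CPM (13.9 to 31.8) and 112.1 CPM (93.6 to 133.2). These 3 were higher in the R1 *Dppa3* cluster, which is a narrower group of cells than the E14Tg2a one. With the R1 *Dppa3* and naive-like cells joined, a grouping chosen after seeing the data, the *Prdm1* level of 25.8 CPM (20.4 to 32.2) overlapped that of E14Tg2a and *Dppa3* fell below it, to 120.5 CPM (108.4 to 133.5). *Tfap2c* (176.7 CPM, 162.0 to 192.4) and *Nanos3* (78.1 CPM, 68.5 to 88.7) remained higher in R1. The intervals hold no spread between cultures. *Prdm14* went the other way, with 35.3 CPM (25.3 to 47.9) in E14Tg2a and 14.8 CPM (8.60 to 23.7) in R1. *Pou5f1* was at 781.2 and 783.7 CPM and *Nanog* at 174.7 and 166.8 CPM, close to equal in these clusters. In the joined R1 cells *Pou5f1* was at 766.4 CPM and *Nanog* at 217.8 CPM (201.4 to 235.0), above E14Tg2a (151.5 to 200.4). Over all cells both were higher in R1, *Pou5f1* with 192.7 against 103.2 CPM and *Nanog* with 40.3 against 21.8 CPM. *Itgb3*, whose protein CD61 is used to sort PGCLC, did not pass 7.16 CPM in any of the 4 clusters with PGC markers.

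The R1 naive-like cluster carried the pluripotency side of the E14Tg2a PGC-like program with low *Dppa3*. Naive pluripotency genes had a median fold of 13.4 in the E14Tg2a PGC-like cluster and 13.3 in the R1 naive-like cluster, against 3.76 in the *Dppa3* cluster. The R1 naive-like cluster was picked by this list, which fixes its value in part. *Klf4*, a naive pluripotency factor, was at 215.4 CPM (194.9 to 237.5) in the R1 naive-like cluster, 53.3 CPM in the E14Tg2a PGC-like cluster and 23.5 CPM in the *Dppa3* cluster. *Fgf4* was at 74.3 CPM (62.5 to 87.7), 34.4 CPM (24.6 to 46.9) and 4.34 CPM in the same order. *Dppa3* itself was at 20.8 CPM (14.8 to 28.5) in the R1 naive-like cluster, far under the 282.4 CPM of the *Dppa3* cluster. It was still above the 986 R1 cells outside the 3 clusters with PGC markers, a comparison chosen after seeing the data, which gave 1 *Dppa3* UMI (0.0673 CPM, 0.00170 to 0.375). *Prdm1* was at 5.35 CPM (2.56 to 9.83) in the naive-like cluster and 2.83 CPM (2.04 to 3.82) in those outer cells, and *Dnd1*, a germ cell RNA-binding protein, at 10.7 CPM (6.53 to 16.5) and 4.04 CPM (3.08 to 5.20).

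Enzymes of DNA methylation had different levels in the clusters with PGC markers. The list had a median fold of 1.17 in the E14Tg2a PGC-like cluster, 0.683 in the R1 *Dppa3* cluster, 0.423 in the *Fgf8* cluster and 3.26 in the R1 naive-like cluster. *Dnmt3b*, a de novo methyltransferase, was at 26.7 CPM in the E14Tg2a PGC-like cluster, 10.4 CPM in the *Dppa3* cluster and 111.7 CPM in the naive-like cluster. *Uhrf1*, which brings the maintenance enzyme to new DNA, was at 37.9, 30.4 and 174.8 CPM. *Dnmt3l*, a cofactor without catalytic activity, was at 16.3 CPM (9.84 to 25.5), 5.21 CPM and 65.7 CPM (54.6 to 78.4). The E14Tg2a PGC-like cluster thus lay between both R1 clusters for these 3 genes, nearer to the *Dppa3* cluster, from which *Uhrf1* did not differ beyond counting error.

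The R1 *Fgf8* cluster joined early PGC regulators to primitive streak genes, of which the E14Tg2a PGC-like cluster held few. Of 8 measured primitive streak genes, 5 were at least 2-fold higher in the *Fgf8* cluster (all genes 4.45%), with a median fold of 3.86. The cluster was picked by these genes, which fixes the count in part. In the E14Tg2a PGC-like cluster 4 of them were measured, 1 was at least 2-fold higher and the median was 0.469. *T*, the brachyury factor of the streak, was at 52.1 CPM (41.3 to 64.8) in the *Fgf8* cluster and gave 0 UMIs in the E14Tg2a PGC-like cluster, where 3 UMIs would be 2.58 CPM. *Fgf8* was at 97.0 CPM (82.0 to 113.8) and 0.860 CPM. *Lefty2*, an inhibitor of Nodal, was raised in both, at 197.8 CPM (11.1-fold) in the *Fgf8* cluster and 31.0 CPM (21.7 to 42.9, 13.8-fold) in the E14Tg2a PGC-like cluster. PGC genes were raised in the same R1 cluster, 9 of 12 at least 2-fold with a median of 3.48, or 8 without the blood-rich cells described below. *Prdm1* was at 74.2 CPM (61.2 to 89.1) and *Dnd1* at 104.1 CPM (88.6 to 121.6). Whether single cells carry both PGC and streak genes was not tested. Naive genes were not raised, with a median fold of 0.260, and *Sox2* was at 136.0 CPM against 371.7 CPM in the E14Tg2a PGC-like cluster. *Psmb8*, an immunoproteasome gene, was also among the 10 leading genes of the *Fgf8* cluster.

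Embryonic globins at the head of the *Fgf8* cluster came from 2 cells. They held 98.9% of the 952 globin UMIs of R1, and without them the blood list went from a median fold of 11.1 to 0.351 in that cluster, while PGC genes had 3.53 and streak genes 3.95. In E14Tg2a, 3 cells held 97.4% of 12202 globin UMIs and lay in 3 different clusters, with 6544 UMIs in a single cell of the PGC-like cluster. Without cells carrying at least 6 of 12 blood markers, the blood list in the E14Tg2a PGC-like cluster went from 5.16 to 0.748. Among the other cells, a globin UMI was seen in 210 of 365 in E14Tg2a (57.5%, 52.3 to 62.7) and in 9 of 1414 in R1 (0.636%). Globin UMIs thus reached most E14Tg2a cells at low level, and a share of cells with a globin UMI was not read as expression.

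Leading genes carried over between the clusters with PGC markers in both directions. Of the 100 leading genes of the E14Tg2a PGC-like cluster, 95 were measured in R1, and 79 were at least 2-fold higher in the *Dppa3* cluster (all genes 7.24%). In reverse, 74 of 81 leading *Dppa3* cluster genes were at least 2-fold higher in the E14Tg2a PGC-like cluster (all genes 5.60%, also for the next 2 reverse counts). The naive-like cluster gave 78 of 95 (all genes 7.38%) and 48 of 54 in reverse. The *Fgf8* cluster gave 25 of 95 (all genes 4.45%) and 44 of 76 in reverse. At a 4-fold limit the *Dppa3* cluster gave 48 of 95 (all genes 1.70%) and the *Fgf8* cluster 6 (all genes 0.723%), and 18 of 76 *Fgf8* cluster genes passed in reverse (all genes 1.61%). Low-resolution clustering joined the *Dppa3* and naive-like cells into 1 cluster of 13.9%. The measured E14Tg2a genes were highest in the naive-like cluster for 56, in the *Dppa3* cluster for 26 and in the *Fgf8* cluster for 6. Genes that led the E14Tg2a cluster and passed 2-fold in the *Dppa3* cluster included all 10 at the top, *Dppa5a*, *Sox2*, *Nanog*, *Tdgf1*, *Pou5f1*, *Dppa3*, *Ooep*, *Tcea3*, *Gdf3* and *Fbxo15*. Placing each E14Tg2a PGC-like cell beside its most alike R1 cluster gave 27 cells for *Dppa3*, 21 for naive-like and 0 for *Fgf8*. In reverse, the E14Tg2a PGC-like cluster was the most alike for 70 of 70 *Dppa3*, 108 of 108 naive-like and 105 of 110 *Fgf8* cluster cells. Most *Fgf8* cluster cells were thus nearer to the PGC-like cluster than to any other of E14Tg2a, though no PGC-like cell was nearest to the *Fgf8* cluster.

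Most PGCLC genes of the study, defined on E14Tg2a cells, were also raised in the R1 *Dppa3* and naive-like clusters. Of the 381 listed genes that were matched, 329 (86.4%, all genes 5.61%) were at least 2-fold higher in the E14Tg2a PGC-like cluster, which the choice of the list fixes in part. In R1, 264 (69.3%) passed in the *Dppa3* cluster, against 4.77% of all matched genes. The naive-like cluster gave 238 (62.5%, all genes 5.16%) and the *Fgf8* cluster 106 (27.8%, all genes 3.29%). Median folds were 2.73, 2.64 and 1.41 in the 3 R1 clusters, and 8, 11 and 61 listed genes were at least 2-fold lower. Passing in the *Dppa3* and naive-like clusters but not in the *Fgf8* cluster was the most frequent pattern, with 151 genes. All 3 clusters shared 42 genes, the *Fgf8* cluster alone had 25, and 47 passed in none of the 3. At a 1.5-fold limit the *Fgf8* cluster count was 170 (all genes 8.35%).

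**Figure D2:**
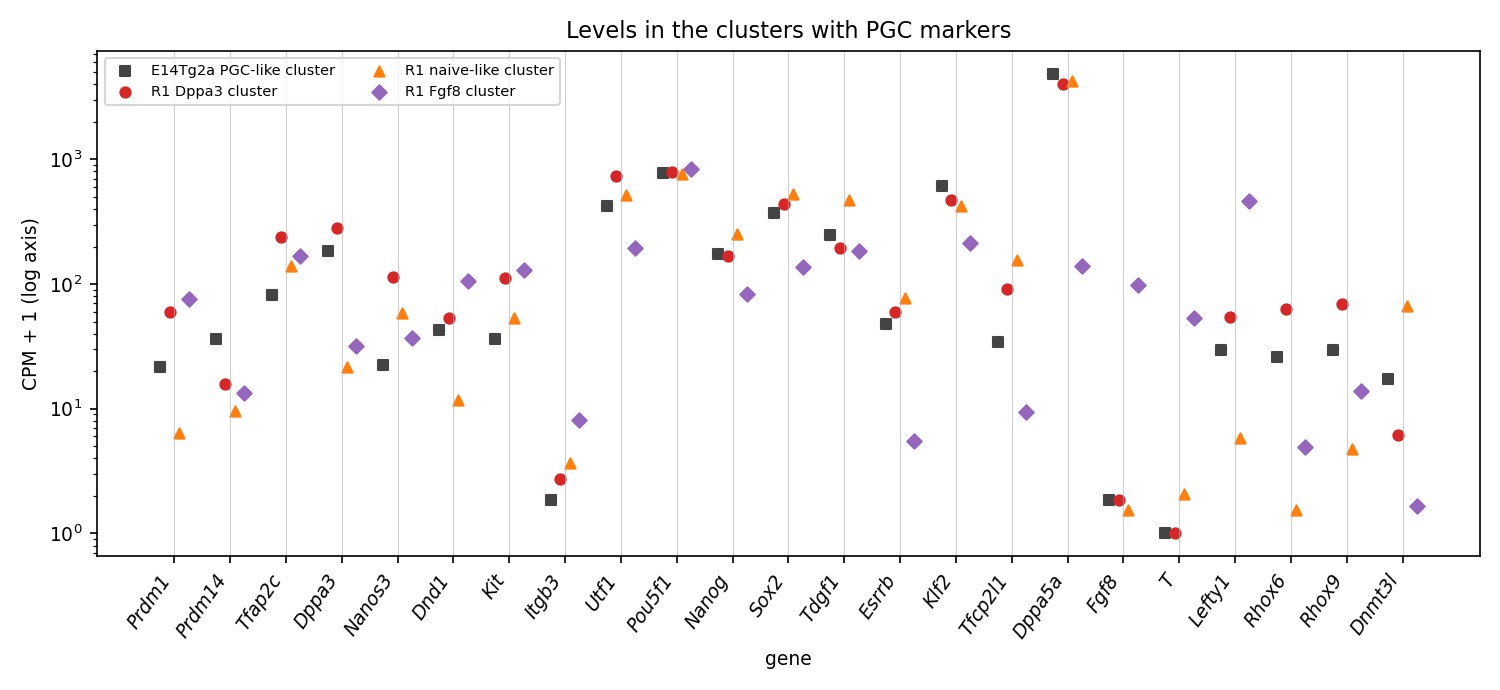
Level of each gene, as CPM plus 1 on a log axis, in the E14Tg2a PGC-like cluster and in the R1 *Dppa3*, naive-like and *Fgf8* clusters, each point being the summed UMIs of a cluster. *Dppa3* is high in the E14Tg2a PGC-like cluster (183.3 CPM) and the R1 *Dppa3* cluster (282.4 CPM), and *T* and *Fgf8* in the *Fgf8* cluster (52.1 and 97.0 CPM).

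Joint detection of early PGC genes asked how many single cells carry several of them. At equal depth, at least 2 of *Prdm1*, *Dppa3*, *Nanos3* and *Dnd1* were seen in 14 of 368 E14Tg2a cells (3.80%, at most 6.30) and in 107 of 1274 R1 cells (8.40%, 6.93 to 10.1). In E14Tg2a, 12 of these were among the 48 PGC-like cells (25.0%, 13.6 to 39.6). In R1 the share was 62.9% in the *Dppa3* cluster, 44.5% in the *Fgf8* cluster and 12.0% in the naive-like cluster. Mesoderm should lack these genes, and 1 of 159 collagen-rich E14Tg2a cells (0.629%) and 0 of 476 collagen-rich R1 cells (at most 0.772%) passed. The collagen-rich cells had medians of 19034 and 12736.5 UMIs before thinning. With all UMIs the shares were 9.24% of E14Tg2a and 10.9% of R1 cells, and 60.4% of the E14Tg2a PGC-like cluster, 78.6% of the *Dppa3* cluster and 58.2% of the *Fgf8* cluster. The whole-library shares were thus more alike with all UMIs, with the E14Tg2a cells read deeper.

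Keratin-rich epithelium was found in both lines, but 2 homeobox genes of the X-linked Rhox cluster were far apart between these libraries. *Krt7* was at 142.3 CPM (125.5 to 160.6) in the E14Tg2a ExE-like cluster and 55.5 CPM (47.8 to 64.1) in the R1 *Krt7* cluster. *Krt18* was at 2435.4 and 1639.6 CPM, *Krt8* at 2281.1 and 2629.2 CPM, and *Cryab*, a small heat shock protein, at 242.0 and 259.6 CPM. *Rhox6*, known from placenta, was at 1666.8 CPM (1608.3 to 1727.0) in E14Tg2a and 1.49 CPM (0.484 to 3.48) in the R1 *Krt7* cluster. *Rhox9* was at 1188.3 and 2.39 CPM. In R1 both were instead highest in the *Dppa3* cluster, with 62.6 CPM (48.9 to 78.8) for *Rhox6* and 67.8 CPM for *Rhox9*, while the E14Tg2a PGC-like cluster held 25.0 CPM of *Rhox6*. The cluster carrying the most of these transcripts thus differed between both libraries. Over all cells of the R1 d4 EB with the catalytic mutations, also 1 library, *Rhox6* was at 110.9 CPM and *Rhox9* at 92.0 CPM. Over all R1 wild-type cells they were at 4.26 and 5.87 CPM. The part of line or mutation in these levels was not tested.

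Placental markers were also uneven between these epithelial clusters. Of the measured ExE genes, 8 of 10 were at least 2-fold higher in the E14Tg2a cluster (median 8.22, all genes 10.2%) and 4 of 11 in the R1 *Krt7* cluster (median 1.62, all genes 6.44%). Genes of amnion and surface ectoderm gave 8 of 10 (median 7.59) and 7 of 11 (median 2.45). The E14Tg2a cluster was picked by the ExE list and the R1 one by the amnion list, which fixes these counts in part. *Ascl2*, a factor of the ectoplacental cone, was at 65.4 CPM in E14Tg2a and 3.88 CPM in R1. *Esx1*, a placental homeobox gene, went the other way with 22.9 and 59.1 CPM. *Elf5*, a defining gene of trophoblast stem cells, was close to 0 in both, at 3 UMIs (1.64 CPM) in E14Tg2a and 0 UMIs in R1, where 3 would be 0.895 CPM. *Ccl2* and *Cxcl16*, both chemokines, led the R1 *Krt7* cluster with 84.2 and 69.5 CPM, against 6.54 and 45.8 CPM in the E14Tg2a ExE-like cluster. Stress genes had a median fold of 1.84 in the R1 *Krt7* cluster and 0.897 in the E14Tg2a ExE-like cluster, and their part in the difference was not tested. Of 100 leading E14Tg2a genes, 80 were measured in R1, and 56 of these were at least 2-fold higher in the *Krt7* cluster. In reverse 66 were measured and 55 passed. Most of the program measured in both was thus shared, while genes with too few UMIs in the other library are not counted.

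**Figure D3:**
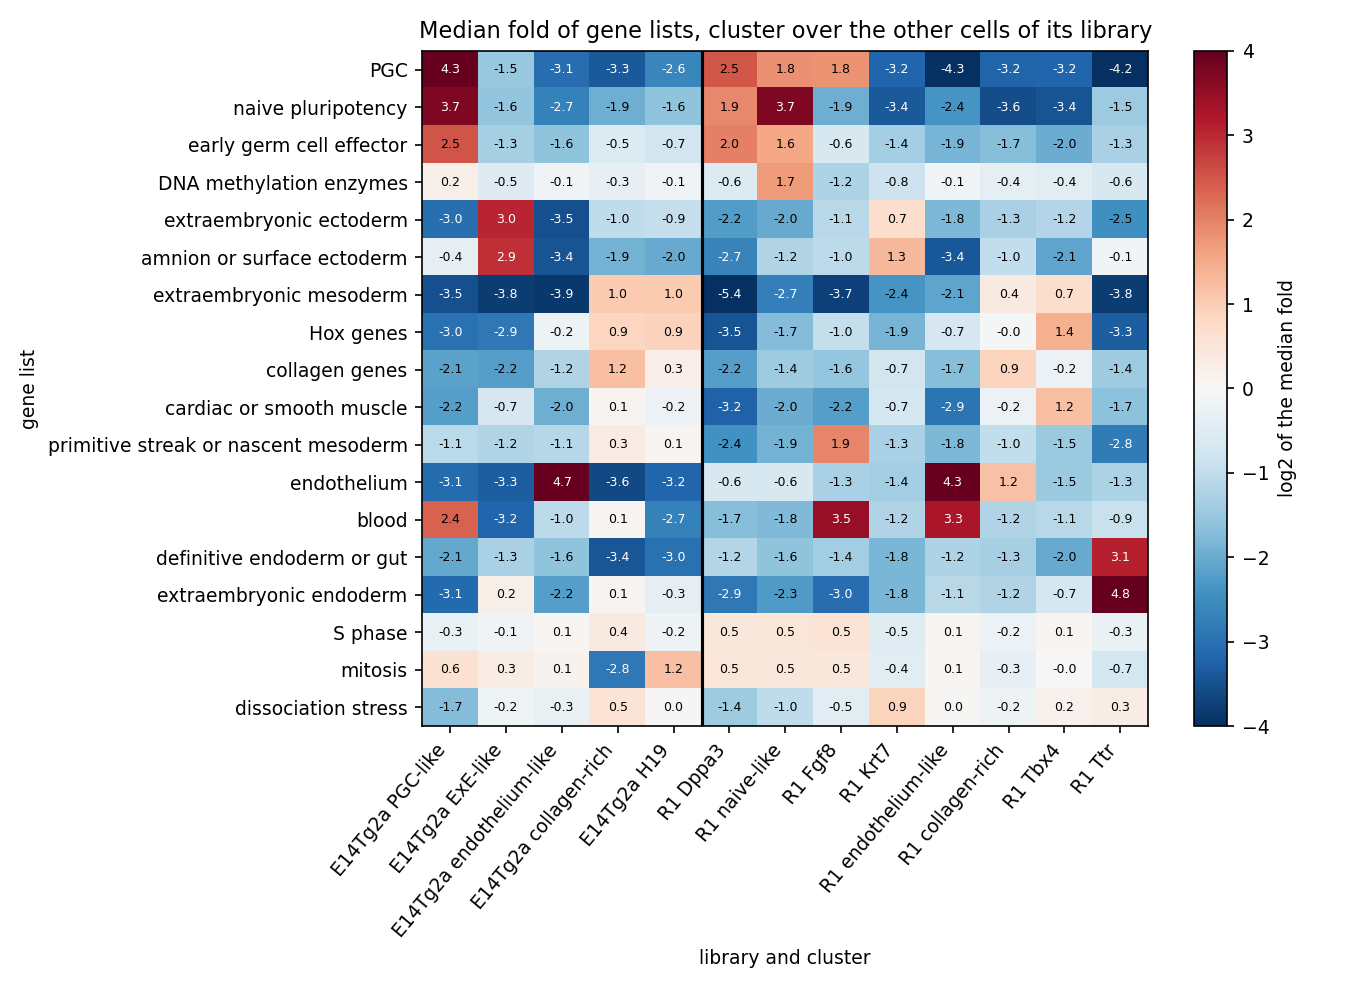
Median fold of each cell type list in each cluster over the other cells of the same library, coloured on a log2 scale, with E14Tg2a and R1 clusters side by side. PGC genes reach a median of 19.8 in the E14Tg2a PGC-like cluster and 5.57 in the R1 *Dppa3* cluster, and endothelial genes 25.6 and 19.4 in the endothelium-like clusters. These clusters were picked by these lists, which fixes the values in part.

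Endothelium was a small lineage in both lines, and the clusters picked by its marker list carried all of these markers. At the main settings, with 10 components, R1 endothelial cells did not separate from collagen-rich mesoderm. With 20 components, chosen for this lineage after seeing the data, they formed a cluster of 21 cells (1.65%, 1.02 to 2.51). They also separated without thinning, without doublets, at a lower and at a higher resolution, and with component scores rounded to 3 decimals (1.57%). They did not separate with another seed. The joint cluster thus rests on a narrow choice of settings. K-means on a rebuilt t-SNE was set to 4 groups for E14Tg2a and 5 for R1, fewer than the clusters found here, so some lineages had to merge. It put all 27 E14Tg2a endothelium-like cells with most *H19* cluster cells. All 21 R1 cells went with 107 of the 110 *Fgf8* cluster cells. The paper's own k-means on E14Tg2a d4 EB, also with 4 groups, named an endothelial group. All 12 endothelial markers were at least 2-fold higher in each endothelium-like cluster, with a median fold of 25.6 in E14Tg2a and 19.4 in R1. Of all genes, 5.56% passed in E14Tg2a and 5.37% in R1. Both clusters were picked as the highest in this marker list, which fixes its values in part. *Cdh5*, the cadherin of vessel walls (ENSMUSG00000031871), was at 260.1 CPM (231.9 to 290.8) and 244.1 CPM (191.6 to 306.4), with overlapping intervals. *Kdr*, the main VEGF receptor, was at 331.7 and 303.4 CPM. *Cldn5*, a tight junction protein, was higher in E14Tg2a with 601.1 CPM (557.8 to 646.9) against 72.6 CPM (45.5 to 109.9), and *Ctla2a*, a protease inhibitor, was higher in R1 with 306.5 against 2094.2 CPM (1934.5 to 2263.7). *Gimap6*, a gene of the immune-associated GTPases, was among the 10 leading E14Tg2a genes with 80.0 CPM, against 9.89 CPM in R1.

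The endothelial program carried over in part, and endothelial cells were a larger share of the E14Tg2a library by clusters and by marker counts. Of 100 leading E14Tg2a genes, 64 were measured in R1, and 56 of these were at least 2-fold higher in the R1 cluster (all genes 5.37%). Genes with too few R1 UMIs, *Gimap6* and *Aplnr* among them, are not counted. In reverse 40 of 100 passed (all genes 5.56%). At a 4-fold limit the reverse count was 23 (all genes 2.11%). Cells with at least 5 of 12 endothelial markers at equal depth, a count that needs no clusters, were 24 of 368 in E14Tg2a (6.52%, 4.22 to 9.55) and 12 of 1274 in R1 (0.942%, 0.488 to 1.64). A further 1 E14Tg2a cell and 5 R1 cells were 1 marker short. Giving each R1 cell to its most alike E14Tg2a cluster put 59 (4.63%, 3.54 to 5.93) with endothelium, an interval that overlaps both E14Tg2a ones. With 1 library a line, how much such shares vary between cultures was not tested. Blood markers had a median fold of 9.70 in the R1 endothelium-like cluster, but 1 of its 21 cells was rich in blood markers and held 100 of its 103 globin UMIs. Without such cells, left out after seeing the data, 3 blood markers could be measured in R1, with a median fold of 17.9. Of these, 2 passed, *Tal1* (62.2-fold) and *Itga2b* (17.9-fold), and all 12 endothelial markers still passed.

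Mesoderm made up most of each EB and split into 2 clusters in each line along different genes. In R1 the split followed *Tbx4* and *Pitx1*, transcription factors of the hindlimb, *Tbx4* also of the allantois. *Tbx4* was at 370.1 CPM in the R1 *Tbx4* cluster and 37.5 CPM in the R1 collagen-rich cluster, but at 148.4 CPM in the E14Tg2a *H19* cluster and 102.7 CPM in the E14Tg2a collagen-rich cluster. *Pitx1* was at 448.9 and 58.5 CPM in R1 against 360.0 and 298.4 CPM in E14Tg2a. In E14Tg2a the split followed mitosis genes. The mitosis list had a median fold of 2.32 in the *H19* cluster, with 12 of 16 genes at least 2-fold higher (all genes 2.93%), and 0.139 in the collagen-rich cluster. S phase genes went the other way, with medians of 0.875 and 1.29 in the same order. The mitosis list stood at 0.987 and 0.804 in the R1 *Tbx4* and collagen-rich clusters. The clusters thus divide mesoderm along different genes. By most alike cluster, 81 of 96 *H19* cells (84.4%) went with the R1 *Tbx4* cluster. The E14Tg2a collagen-rich cells went 75 to *Tbx4* and 72 to the R1 collagen-rich cluster. In reverse, 176 of 327 *Tbx4* cells went with *H19* and 146 with the E14Tg2a collagen-rich cluster. Of 92 leading *Tbx4* cluster genes measured in E14Tg2a, 53 were highest in its collagen-rich cluster and 30 in *H19*. Whether any pair is the same cell type was not tested.

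Hox genes and collagens were spread differently over the mesoderm clusters of each line. Hox genes had a median fold of 1.88 in the E14Tg2a *H19* cluster and 1.82 in the collagen-rich cluster, with 13 of 31 at least 2-fold higher in each (all genes 2.93% and 4.92%). In R1 they were raised in the *Tbx4* cluster, with a median of 2.70 and 27 of 36 (all genes 3.47%), and not in the collagen-rich cluster, with 0.970 and 6 of 36 (all genes 4.03%). *Hoxd11*, a posterior Hox gene, was at 27.5 CPM in the *H19* cluster and 71.9 CPM in the *Tbx4* cluster. Collagens passed for 14 of 25 in the E14Tg2a collagen-rich cluster (median 2.31) and for 12 of 30 in that of R1 (median 1.86). *Col3a1*, a fibrillar collagen, was at 156.3 and 52.0 CPM. *Hand1*, a factor of extraembryonic mesoderm, was at 984.4 CPM in the R1 collagen-rich cluster and 501.8 CPM in the *Tbx4* cluster, against 256.4 and 257.6 CPM in the E14Tg2a collagen-rich and *H19* clusters. Crossing the collagen-rich clusters gave 33 of 93 leading genes from E14Tg2a to R1 and 16 of 54 in reverse. The R1 cluster holds 20 endothelium-like cells, and 25 of these 54 genes were highest in E14Tg2a endothelium. With the R1 endothelium-like cells left out, a choice made after seeing the data, the counts were 35 of 92 and 20 of 49. From the *H19* to the *Tbx4* cluster 35 of 99 passed, and in reverse 42 of 92. At a 4-fold limit the collagen-rich counts were 4 (all genes 0.677%) and 3 (all genes 0.152%), and the *H19* and *Tbx4* counts 22 (all genes 0.686%) and 1 (all genes 0.0650%).

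BMP response genes had similar values in the mesoderm of both lines and low ones in the clusters with PGC markers. Their median fold was 1.42 and 1.37 in the E14Tg2a collagen-rich and *H19* clusters, and 1.45 and 1.20 in the R1 collagen-rich and *Tbx4* clusters. It was 0.305 in the E14Tg2a PGC-like cluster, 0.111 in the R1 *Dppa3* cluster, 0.265 in the naive-like cluster and 0.378 in the *Fgf8* cluster. Every cluster with PGC markers was thus below the other cells of its library in both lines.

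Endoderm was seen as a cluster in R1 and not in E14Tg2a. The R1 *Ttr* cluster had a median fold of 27.6 for extraembryonic endoderm genes, with 7 of 8 at least 2-fold higher (all genes 6.78%), and 8.55 for gut genes, with 6 of 8. The cluster was picked by the extraembryonic endoderm list, which fixes the value of that list in part. *Ttr*, a carrier of thyroid hormone, was at 362.4 CPM there, *Rbp4*, the retinol carrier, at 565.3 CPM, and the endoderm factors *Sox17* and *Foxa2* at 291.8 and 120.8 CPM. *Afp* and *Cer1* gave 0 UMIs, where 3 would be 6.84 CPM. The smallest E14Tg2a cluster held 7.34% of cells. By most alike R1 cluster, 8 of 368 E14Tg2a cells (2.17%, 0.943 to 4.24) went with the *Ttr* cluster, 5 of them endothelium-like. Whether any of these are endoderm was not tested.

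In the whole EB, most genes stood at like levels and the endothelial and muscle medians lay on opposite sides. All UMIs of a library were summed, and 10662 genes reached 100 UMIs over the pair of libraries and were compared. Of these, 75.6% were within 2-fold, 131 (1.23% of all) were at least 4-fold higher in E14Tg2a and 337 (3.16% of all) at least 4-fold higher in R1. The median log2 ratio of E14Tg2a over R1 was -0.38, and list changes are read relative to it. After centring on that median the counts were 190 and 203, so the share of calls higher in E14Tg2a went from 28.0% to 48.3%. In thinned cells, without centring, the counts were 75 and 324, and this share went the other way, to 18.8%. In all, 17 of the 131 and 113 of the 337 genes were also 4-fold apart between every E14Tg2a and every R1 library of the tables. *Hprt* is among the latter, as are *Nme2*, at 23.4 CPM in E14Tg2a and 1611.5 CPM in R1, and *Mrpl53*, at 0.105 and 138.4 CPM. For these genes line, chemistry and annotation cannot be told apart. With 5 CPM in place of 1 added before the ratio, the counts were 64 and 121.

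Most endothelial markers were higher in E14Tg2a, with a summed level of 431.7 CPM (418.6 to 445.1) against 136.3 CPM (131.3 to 141.5) in R1. The ratio was 3.17 and became 4.14 after centring, and 7 of 11 measured markers were at least 4-fold higher (all genes 1.23%). *Flt1*, a VEGF receptor and the most abundant of them in R1, went the other way with 40.7 CPM in R1 and 22.7 CPM in E14Tg2a, 1.79-fold (1.54 to 2.09), and *Pecam1*, an adhesion protein, was at 23.2 and 25.4 CPM. At equal depth both were seen in more R1 cells, *Flt1* in 12.5% against 5.98% and *Pecam1* in 14.1% against 7.34%. Blood markers summed to 1321.9 and 117.5 CPM, mostly globins of the 3 E14Tg2a cells named above, while *Runx1*, the factor that starts blood formation, was 8.23-fold higher in R1 (6.53 to 10.5), at 65.8 CPM. *Rhox6* was at 330.6 CPM in E14Tg2a and 4.26 CPM in R1, 77.6-fold (62.7 to 97.2), and *Rhox9* at 237.8 and 5.87 CPM. The ExE list summed to 1687.1 and 1778.9 CPM, and the direction of this sum flips when centred.

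Genes on the cardiac or smooth muscle list were mixed. Of 8 measured, 4 were at least 4-fold higher in R1 (all genes 3.16%) and 1 in E14Tg2a (all genes 1.23%). No separate list of smooth muscle genes was made. *Tagln*, an actin-binding protein of smooth muscle, was at 488.5 CPM in R1 and 58.5 CPM in E14Tg2a, and *Acta2*, smooth muscle actin, was at 265.5 CPM in R1, 5.53-fold higher (5.03 to 6.10). *Myl9* and *Cnn1* were also over 4-fold higher in R1. The atrial light chains *Myl4* and *Myl7* went the other way, *Myl4* with 1.27 CPM in R1 and 15.6 CPM in E14Tg2a and *Myl7* with 0.538 and 6.74 CPM, though *Myl7* had under 100 UMIs. *Actc1*, cardiac actin, was at 6.46 CPM in R1 and 3.90 CPM in E14Tg2a, and *Tpm2*, a tropomyosin, was 1.58-fold higher in E14Tg2a (1.44 to 1.73). The sum of the muscle list, 890.9 CPM in R1 and 249.8 CPM in E14Tg2a, thus rests mostly on *Tagln* and *Acta2*. Its ratio was 3.57 and became 2.73 after centring. *Ahnak*, a large scaffold protein, was at 418.9 and 59.0 CPM, and *Hand1* at 630.4 and 220.4 CPM. Extraembryonic mesoderm genes summed to 2066.7 CPM in R1 and 1087.2 CPM in E14Tg2a, though the list's median log2 ratio of -0.34 turns to 0.05 when centred.

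PGC genes and enzymes of DNA methylation were higher in R1 as sums, the PGC genes mostly in 4 genes that pluripotent cells share. PGC genes summed to 577.9 CPM in R1 and 350.0 CPM in E14Tg2a, a ratio of 1.65 that became 1.26 after centring. *Pou5f1*, *Nanog*, *Sox2* and *Utf1*, set apart after their values were seen, made up 434.2 and 236.6 CPM of it. The other 8 genes summed to 143.7 and 113.4 CPM, a ratio of 1.27 that flips to 0.970 when centred. *Dppa3* was at 20.6 CPM in R1 and 23.9 CPM in E14Tg2a, and *Tfap2c* at 42.5 and 42.1 CPM. The DNA methylation list summed to 527.1 and 253.8 CPM, a ratio of 2.08 or 1.59 when centred. Of its 8 genes, 1 was at least 4-fold higher in R1 (all genes 3.16%). At a 2-fold limit 4 were higher in R1, with 75.6% of all genes within 2-fold and no share of all genes given by direction. *Tet1*, which oxidises methylcytosine, was at 88.0 and 16.5 CPM and *Dnmt1*, the maintenance enzyme, at 186.7 and 74.8 CPM. *Dnmt3a* was close to equal, at 48.1 and 45.8 CPM. Primitive streak genes summed to 117.4 CPM in R1 and 73.1 CPM in E14Tg2a, and *Fgf8* was at 7.93 and 0.632 CPM. The sum of the naive list (1374.8 and 1116.3 CPM) flips in direction when centred, while its median log2 ratio of -0.89 became -0.51. The sums of collagens (860.4 CPM in R1 and 782.8 in E14Tg2a), amnion genes (1480.3 and 1314.0) and early germ cell genes (78.9 and 60.9) flip too, and that of Hox genes, lower in E14Tg2a by a ratio of 0.766, has no difference left when centred (0.999, R1 over E14Tg2a). No direction is given for these lists. Formative pluripotency genes summed higher in E14Tg2a (425.2 against 316.8 CPM) while their median log2 ratio was -0.91, so sum and median differ in sign. Extraembryonic endoderm genes did the same, with a sum ratio of 1.10 and a median of -0.46.

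Genes of cell state were apart by different amounts. The immediate early genes *Fos* and *Egr1* were at 286.3 and 215.7 CPM in E14Tg2a against 59.0 and 36.5 CPM in R1. They were the 2 of 12 stress genes at least 4-fold apart (all genes 1.23% higher in E14Tg2a). S phase genes summed to 1126.9 CPM in E14Tg2a and 1763.5 CPM in R1, and mitosis genes to 1603.5 and 2478.7 CPM, ratios of 1.56 and 1.55 that became 1.20 and 1.18 when centred. *Pcna*, the replication clamp, was at 48.6 and 203.9 CPM. Genes of the 2-cell-like state were near 0 in both, at 0.632 and 0.0489 CPM. BMP response genes summed to 1913.2 CPM in E14Tg2a and 2719.6 CPM in R1, a ratio of 1.42 that became 1.09 when centred. Neural genes summed to 37.7 and 115.4 CPM, 2.34-fold higher in R1 when centred. This sum rests mostly on *Tubb3* (27.3 and 70.8 CPM) and *Ncam1* (9.27 and 37.6 CPM), the only 2 of 12 with at least 100 UMIs. No direction is given for the other neural genes. Gut genes summed to 88.1 and 146.7 CPM, but without *Spink1*, left out after seeing the data, to 79.6 and 65.0 CPM, so no direction is given for them. Line and chemistry cannot be told apart in any of these values.

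**Figure D4:**
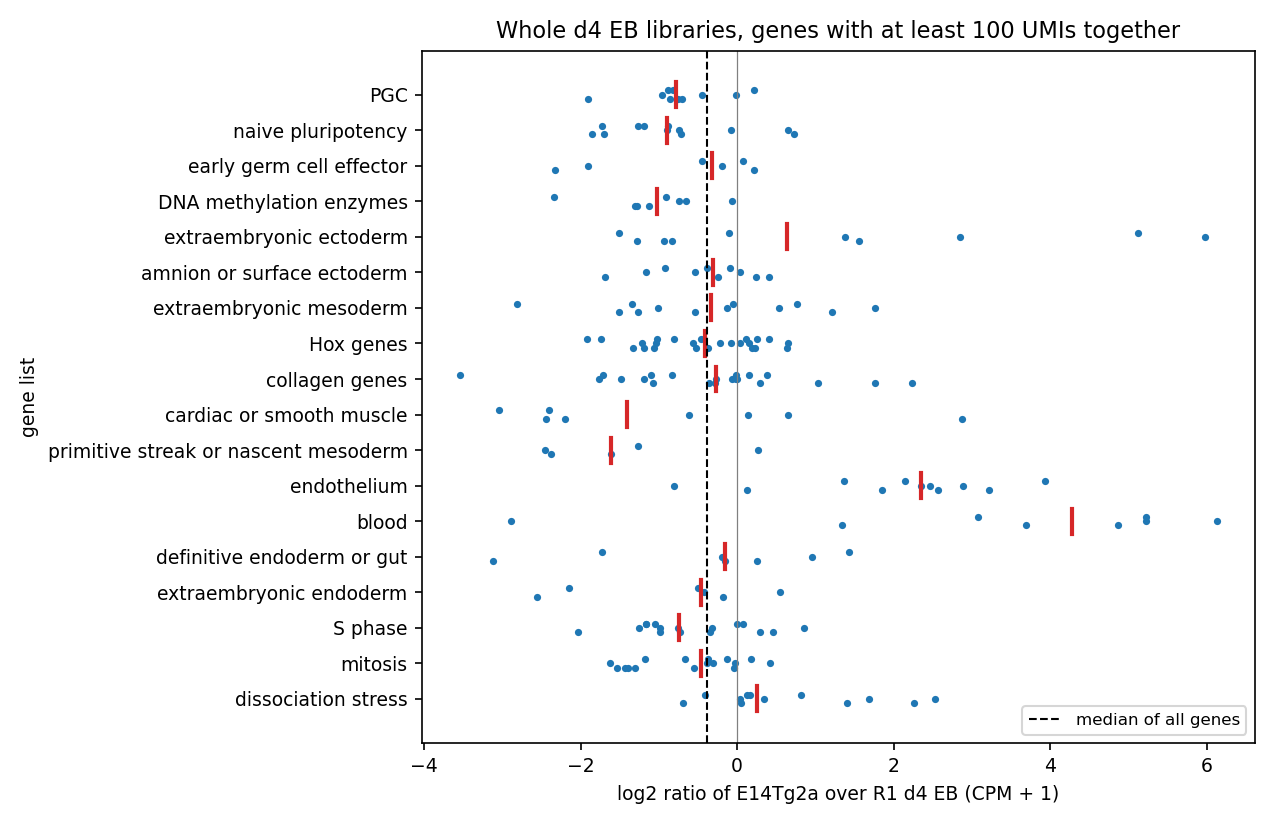
Log2 ratio of E14Tg2a over R1 whole d4 EB, with each gene of a list as a point, the list's median as a bar and the median of all genes (-0.38) as a dashed line. The endothelial median lies to the E14Tg2a side (2.35) of 0 and of the dashed line and the muscle median to the R1 side (-1.40), while medians of amnion, extraembryonic mesoderm, gut, early germ cell and collagen lists lie between 0 and the dashed line and so flip when centred.

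Marker detection at equal depth was compared with that of all genes. Of 163 matched markers of the 14 cell type lists, 53 were seen in at least 10% of E14Tg2a cells (all genes 25.4%) and 56 in at least 10% of R1 cells (all genes 28.7%). In both libraries 45 passed, 84.9% and 80.4% of those passing in each, against 94.8% and 83.8% for all matched genes, so the markers overlapped no more than other genes did. *Hbb-y* passed in E14Tg2a, where globin UMIs occurred in most cells, so a pass is a count of cells with a UMI and not a call of expression. With all UMIs, 72 and 68 markers passed, so the E14Tg2a count was the larger before thinning and the smaller after it.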

How the data were processed

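The authors deposited UMI counts of single cells in 2 tables. For E14Tg2a they used Cell Ranger 2.1.0 and mm10; for R1 they kept cells with at least 2000 expressed genes, and the counting tool is not stated. Symbols found once in each table were matched. Cells were thinned to the depth of the 10th percentile of the shallower library. Each library was clustered alone (Seurat 5.3.0, R 4.3.3; 2000 variable genes, 10 components, resolution 0.3). Folds use all UMIs with 1 CPM added, on genes with at least 50 UMIs in the cluster for leading genes. A leading gene was measured in the other library if it had at least 50 UMIs there. List medians use genes with at least 10 UMIs. Doublets were called with scanpy 1.11.5 (Scrublet) and kept. No test was possible with 1 library a group. Calculations were tested on simulated data. Named genes are markers and pathway members on the lists, the 10 leading genes of each paired lineage, the 10 largest whole-EB ratios in each direction, and line and sex genes. Members and lists were chosen with earlier results of these data known.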

Additional observations from a re-analysis of the deposited data

How the results depend on the processing

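No paired analysis was possible because each line is 1 library. Of 176 alternative values for the 30 main results, 120 stayed within the interval or within 1.5 times the count and 56 moved; the cause of a move was not tested unless the setting itself gives it. Whole-EB ratios of named genes moved in 496 of 1170 alternatives and changed sign in 68, 31 of them after centring. Of 260 such values for genes at least 4-fold apart, 0 changed sign. Shares of cells with a UMI moved in 377 of 652 alternatives, and 275 stayed within the interval. Depth was changed there, and in R1 the set of cells changed with it. The R1 cells were 1274 when thinned, 1416 without thinning and 1411 at 4429 UMIs, while E14Tg2a kept 368 at each depth. For R1 these moves thus cannot be given to depth alone.

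Shares of cells moved with the way of grouping. Nearest cluster of the other line gave 25.3% of E14Tg2a cells for the 3 R1 clusters with PGC markers, with 45 of these 93 cells from outside the PGC-like cluster, and 4.63% for R1 endothelium. K-means on t-SNE, set to 4 groups for E14Tg2a and 5 for R1, had fewer groups than there were clusters and so had to merge lineages. It gave 14.2% for R1 PGC markers and for its *Dppa3* and naive-like cells. The E14Tg2a ExE-like cluster had 16.6%, the R1 *Krt7* and *Ttr* clusters 18.6%, E14Tg2a endothelium 32.3% and R1 endothelium 16.6%. Resolution 0.2 gave 13.9% for the joined *Dppa3* and naive-like cells. The R1 *Krt7* share was 9.18% without thinning and 10.5% with a second seed. The R1 cluster highest in endothelial markers (37.4%) went to 1.48% without thinning, 1.57% at resolution 0.2, 1.65% at resolution 0.5, 1.65% with 20 components, 1.66% without doublets and 24.6% with a second seed. Chosen after seeing the data, rounding component scores gave 1.57% and cells with 5 markers 0.942%.

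Leading genes at a 4-fold limit numbered 48 from PGC-like to *Dppa3*, 6 to *Fgf8* and 18 in reverse, 23 for R1 endothelium in E14Tg2a, 22 from *H19* to *Tbx4* and 1 in reverse, and 4 and 3 for the collagen-rich clusters. K-means clusters were matched by shared cells or, chosen after seeing the data, by markers. Leading genes passing there numbered 45 from *Dppa3* to PGC-like, 2 from PGC-like to *Fgf8* and 20 in reverse. Endothelium gave 22 in each direction, and the R1 to the E14Tg2a collagen-rich cluster 27. No share over all genes is given for counts with k-means clusters, so none is read as above that share. The *H19* and *Tbx4* counts depended on the matching, which was chosen after seeing values: 4 and 3 by shared cells or by *H19*, and 72 in reverse by markers. PGCLC genes in the *Fgf8* cluster numbered 170 at 1.5-fold.

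Genes 4-fold higher in E14Tg2a numbered 64 with 5 CPM added, 46 at 8-fold, 75 in thinned cells and 17 also apart between every library of the tables, the last chosen after seeing the data. Those higher in R1 numbered 121 with 5 CPM added, 203 after centring, 98 at 8-fold and 113 between every library. Depth limits low genes: at 8858 UMIs a cell, genes under a few CPM give 0 UMIs in most cells.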
